A study of Homo sapiens with 6 samples.

Results

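The Krüppel-like factors (KLFs) are transcription factors that bind GC-rich promoter elements through zinc fingers at their C-terminal end. The 10 KLF genes described here are KLF2, KLF3, KLF4, KLF5, KLF6, KLF7, KLF9, KLF10, KLF11 and KLF13, found by gene symbol among the 16798 genes with deposited expected counts. KLF6 was chosen for its fall in these data, so its values are given as a description without a test. The other members were tested with the fit over all genes.

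The samples were bulk RNA-seq libraries of COV434, a human ovarian tumour cell line used in the study as granulosa cells (GCs). There were 3 control samples, labelled wild type, and 3 samples treated with 15 µM 4HC (given in the study as the active metabolite of cyclophosphamide) for 24 h. The labels repeat 1 treatment text for all samples and name no vehicle for the control, and nothing in them says that replicates came from separate cultures, so p-values measure the spread between these samples, which may be technical. COV434 is 1 line, and it was later assigned to small cell carcinoma of the ovary, hypercalcemic type, a tumour defined by loss of the SWI/SNF ATPases SMARCA4 and SMARCA2. Of 9 granulosa marker genes in the table, FOXL2, CYP19A1, FSHR, INHBA, NR5A1 and STAR were below 1 CPM (count per 1000000 counts) in every sample. AMH was between 3.80 and 6.53 CPM, INHA between 0.48 and 1.17 CPM and HSD17B1 between 12.0 and 15.5 CPM, and 0 of these 3 were called. SMARCA4 mRNA was between 21.1 and 28.4 CPM and SMARCA2 mRNA between 0 and 0.24 CPM. The total expected count per sample was between 16133786 and 16702316, so that 1 CPM stands for about 16.1 counts in the shallowest library.

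KLF proteins share their DNA-binding end and differ in the rest of the protein, which recruits different partners. KLF6, KLF7, KLF2, KLF4 and KLF5 mostly act as activators, through acetyltransferases such as EP300. KLF3 represses through the corepressor CtBP, and KLF9, KLF10, KLF11 and KLF13 bind the SIN3A corepressor with its histone deacetylases. Since all of them recognise the GC box and the CACCC box, members can compete for the same promoter, and many KLF promoters carry such boxes themselves. KLF9 and KLF13 have been studied with steroid receptors, and KLF10 and KLF11 as early genes induced by TGF-β.

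The promoter sequences of KLF6 and KLF7 are shown because these were the members with the lowest fitted change. Both come from the RefSeq promoter table of build GRCh38.p14, which held 8 of the 10 members (not KLF3 or KLF10) with 13 windows of 250 bases before a start. Capitals mark a GC box or a CACCC box on either strand. For KLF6 the stretch at chr10:3785282-3785459 on the minus strand is given, which ends 1 base before the furthest KLF6 start in GENCODE 29. For KLF7 the stretch at chr2:207166031-207166060 on the minus strand is given, from the window whose start lies 3 bases from that of the RefSeq transcript NM_003709.
KLF6: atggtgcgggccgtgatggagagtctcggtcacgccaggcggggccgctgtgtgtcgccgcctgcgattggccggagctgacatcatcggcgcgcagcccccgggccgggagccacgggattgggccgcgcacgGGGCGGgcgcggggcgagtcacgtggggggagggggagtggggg
KLF7: gcaaggatgGGGTGggGGGTGgggagggaa
The whole KLF6 window, chr10:3785210-3785459, held 2 GC boxes (GGGCGG or CCGCCC), 0 CACCC boxes (CACCC or GGGTG) and 2 CCAAT boxes (CCAAT or ATTGG), and 72.4% of its bases were G or C. The KLF7 window, chr2:207165949-207166198, held 0 GC boxes and 2 CACCC boxes, both read as GGGTG, and 58% of its bases were G or C. KLF7 had 4 windows in the table, and another of them, chr2:207166857-207167106, held 4 GC boxes. NM_003709 carried 2.80% of the KLF7 counts in control. A GC box was found in 8 of the 13 windows of members and in 42.5% of all 34943 RefSeq windows, and a CACCC box in 6 of 13 and in 54.7% of all windows. These matches are descriptions of the letters and say nothing about binding.

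Levels of the members are given first as the deposited TPM values, which are scaled to length and can be compared between genes. In control cells the order was KLF9 (21.0 ± 0.667, mean ± SD, n = 3), KLF13 (17.8 ± 0.422), KLF3 (16.7 ± 0.372), KLF6 (15.9 ± 0.434), KLF10 (13.3 ± 0.725), KLF11 (9.44 ± 0.693), KLF7 (5.53 ± 0.182), KLF2 (2.49 ± 0.368), KLF5 (1.55 ± 0.308) and KLF4 (1.09 ± 0.0557). The control values of each pair of neighbours in this order did not overlap. Of the activators, KLF6 stood among the corepressor-binding members, while KLF7, KLF2, KLF5 and KLF4 came last, below all corepressor-binding members. After 4HC, KLF10 (16.5 ± 1.18 TPM) stood above KLF3 (14.8 ± 0.552 TPM) and KLF6 (9.49 ± 0.406 TPM), while the other members kept their places by mean. In the 4HC samples, values overlapped between KLF9 and KLF13, between KLF13 and KLF10, and between KLF6 and KLF11, so their order is less certain. The summed TPM of the 10 members was 103.3, 105.4 and 105.8 in the control samples and 93.8, 92.1 and 99.7 in the 4HC-treated samples. KLF6 made up 15.8%, 14.7% and 15.0% of that sum in control samples and 10.2%, 9.85% and 9.91% in 4HC-treated samples. Both the sum and this share hold KLF6, chosen for its fall, so neither is a result about the family.

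**Figure D1:**
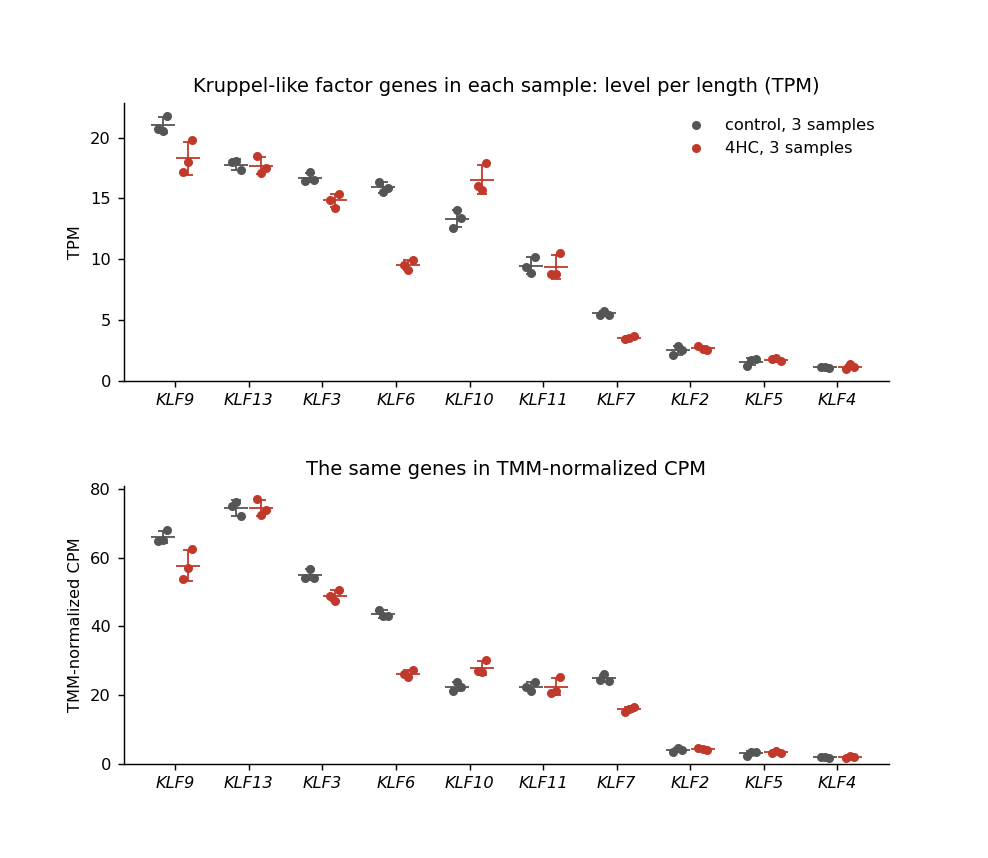
Levels of the 10 KLF genes in each sample, as deposited TPM (top) and TMM-normalized CPM (bottom), with control samples in grey and 4HC samples in red. Points are samples, horizontal lines are means and bars are SD (n = 3). KLF6 and KLF7 lie lower in all 3 treated samples, KLF10 lies higher, and KLF11 and KLF13 overlap between the groups.

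Differences were tested on counts, given below as TMM-normalized CPM, with edgeR's quasi-likelihood test and p-values adjusted over all 12368 genes that passed the low-count filter. A gene was called at an adjusted p under 0.05. All 10 members passed the filter. Over all genes, 36.4% were called, 19.2% as higher and 17.1% as lower in 4HC-treated cells, and the groups did not overlap in CPM for 45.3%. Of the 9 members other than KLF6, 4 were called: KLF3, KLF7 and KLF9 were downregulated and KLF10 was upregulated. The groups did not overlap for these same 4 of the 9. Both counts are close to the shares over all genes, so the number of members called is not a result about the family.

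KLF6 is a widely expressed activator that has been studied as a tumour suppressor, and it is transcribed from the minus strand of chromosome 10 (NCBI Gene 1316; chr10:3775996-3785281 in GENCODE 29). Its CPM was 44.9, 43.0 and 43.2 in control samples and 26.1, 25.2 and 27.3 in 4HC-treated samples. The groups were far apart, with each group's values within about 2 CPM of each other. The fitted log2 fold change was -0.74 (95% interval -0.85 to -0.62), a 4HC level of 0.600 times the control level. The interval makes no allowance for the choice of KLF6 by its fall and is not a test. Among the 10375 genes at 5 CPM or more, it was the 5th lowest fold change. In bulk RNA, less transcript per cell and fewer cells with the transcript cannot be told apart.

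KLF7, the activator closest to KLF6 in sequence, is known for its part in neurons and fat cells (NCBI Gene 8609; chr2:207074137-207167267, minus strand). Its CPM was 24.3, 26.2 and 24.2 in control samples and 15.1, 15.97 and 16.5 in 4HC-treated samples. The lowest control sample was well above the highest treated sample. KLF7 was downregulated (log2 fold change -0.65, SE 0.0726, adjusted p = 2.02e-10), and stood 13th among the lowest fold changes at 5 CPM or more. The call held in each leave-one-out fit, with log2 fold changes from -0.68 to -0.61. The deposited table lists KLF7 on the plus strand and with a longer range than GENCODE. Whether this affected its counts as well as its coordinates was not tested.

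KLF2, KLF4 and KLF5 complete the activators. KLF2 and KLF4 are induced by the ERK5-MEF2 pathway and are known from vessel walls and stem cells, and KLF5 from dividing epithelial cells. All 3 had few reads. KLF2 was 3.39, 4.62 and 4.10 CPM in control samples and 4.65, 4.32 and 4.10 CPM after 4HC. KLF4 ranged from 1.75 to 1.97 CPM in control samples and from 1.63 to 2.28 CPM in treated samples, and KLF5 from 2.34 to 3.44 CPM and from 3.06 to 3.58 CPM. The groups overlapped for each of them. The log2 fold changes were 0.11 for KLF2 (95% interval -0.21 to 0.42, adjusted p = 0.620), 0.06 for KLF4 (-0.39 to 0.51, adjusted p = 0.865) and 0.12 for KLF5 (-0.25 to 0.48, adjusted p = 0.644). At this depth, a rise of the size seen for KLF10 would lie inside all 3 intervals.

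KLF3, the member that recruits CtBP (NCBI Gene 51274; chr4:38664196-38701042, plus strand), was 54.2, 56.9 and 54.2 CPM in control samples and 48.9, 47.4 and 50.7 CPM in 4HC-treated samples. The groups did not overlap, but the gap was small against that of KLF7. KLF3 was downregulated with a log2 fold change of -0.17 (SE 0.0509, adjusted p = 0.00701). Its call was lost with limma on log2(FPKM + 1) (adjusted p = 0.0744). Its exons overlap those of the antisense gene KLF3-AS1, and the sources used here do not state whether counting used strand, so reads of KLF3 and KLF3-AS1 cannot be told apart. KLF12, which also binds CtBP, was 7.76 ± 0.806 CPM in control and 6.84 ± 1.47 CPM in 4HC (log2 fold change -0.18, 95% interval -0.44 to 0.08, adjusted p = 0.281). KLF8, the remaining CtBP-binding member, was below 1 CPM in every sample and was not tested.

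The SIN3A-binding members differed among themselves in direction. KLF9, a gene induced by glucocorticoid and thyroid hormone (NCBI Gene 687; chr9:70384597-70414624, minus strand), was 65.1, 65.1 and 68.1 CPM in control samples and 53.7, 57.1 and 62.6 CPM in 4HC-treated samples. The treated samples spread more widely than the control samples, and their highest value came close to the control values. KLF9 was downregulated (log2 fold change -0.19, SE 0.0506, adjusted p = 0.00189). Its log2 fold change ranged from -0.25 to -0.15 when samples were left out in turn, and its call was lost with limma on log2(FPKM + 1) (adjusted p = 0.0571). KLF10, known as a TGF-β-inducible early gene (NCBI Gene 7071), was 21.2, 23.8 and 22.3 CPM in control samples and 27.0, 26.6 and 30.2 CPM in treated samples. Each treated sample was above each control sample. KLF10 was upregulated with a log2 fold change of 0.32 (SE 0.0677, adjusted p = 0.000171), 1.25 times the control level.

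KLF11, the close relative of KLF10 that is also induced by TGF-β (NCBI Gene 8462), was not called. Its CPM was 22.3, 21.2 and 23.7 in control samples and 20.7, 21.3 and 25.2 in treated samples, and the groups overlapped. The 95% interval of its log2 fold change was -0.15 to 0.15 (adjusted p = 0.997), which lies below the KLF10 estimate, although the difference between the 2 genes was not itself tested. KLF11 exons overlap the antisense gene AC104794.4. KLF13, the nearest relative of KLF9 (NCBI Gene 51621), had the most reads of all members, with 75.3, 76.4 and 72.1 CPM in control samples and 77.2, 72.6 and 73.9 CPM in treated samples. Its interval was -0.09 to 0.09 (adjusted p = 0.999), the narrowest of the 10. The deposited table lists KLF13 on an alternate scaffold and with another range than GENCODE, and an effect on its counts was not tested. KLF16, a further SIN3A-binding KLF outside the 10, was 47.6, 48.6 and 51.2 CPM in control samples and 38.3, 43.6 and 42.2 CPM in treated samples, and was downregulated (log2 fold change -0.25, SE 0.0551, adjusted p = 0.000264).

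**Figure D2:**
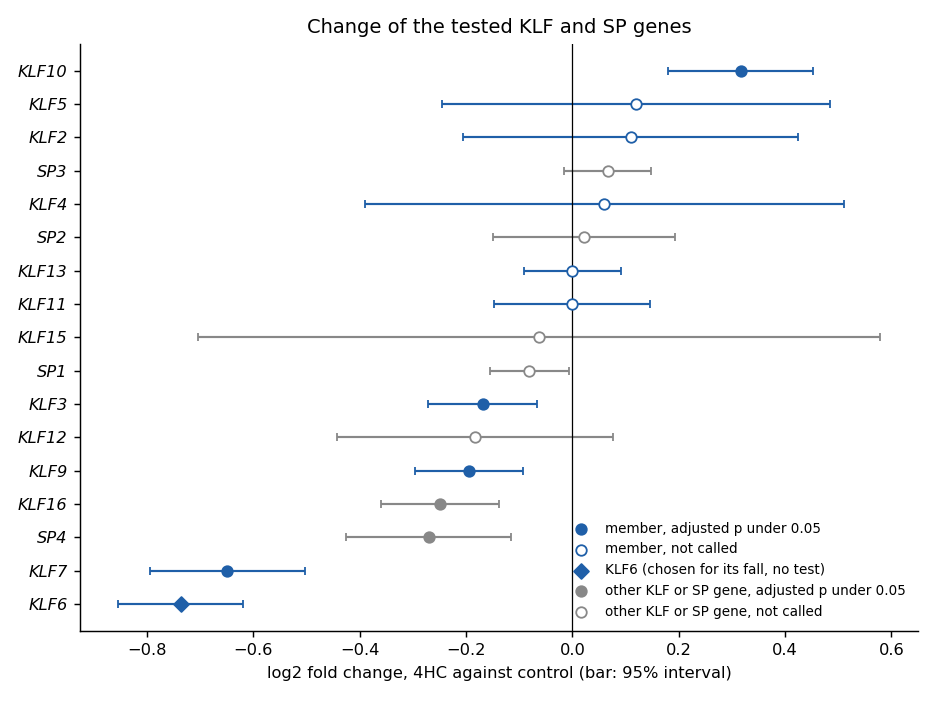
Log2 fold change of the tested KLF and SP genes in 4HC-treated against control cells (x axis), with 95% intervals as bars. Filled circles passed an adjusted p of 0.05, open circles did not, and KLF6 is a diamond because it was not tested. KLF6 was chosen for its fall, and its bar makes no allowance for that choice. KLF6 and KLF7 stand apart on the left at -0.74 and -0.65, and KLF10 is the called gene on the right at 0.32.

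Of 8 other KLF genes listed, 6 were in the table and 3 were tested, and KLF16 was called. KLF15 was 0.979 ± 0.246 CPM in control and 0.939 ± 0.344 CPM in 4HC and was not called (adjusted p = 0.902). KLF1 and KLF14 were below 1 CPM in every sample, and KLF17 and KLF18 were not analysed here. The SP proteins bind the same GC boxes as the KLFs, and 4 of 9 SP genes were tested. SP4, an activator with a part in neurons, was 21.1, 17.8 and 20.5 CPM in control samples and 16.2, 16.4 and 16.6 CPM in treated samples. It was downregulated (log2 fold change -0.27, SE 0.0775, adjusted p = 0.00455). SP1, the general activator of GC-box promoters, was 173 ± 4.81 CPM in control and 164 ± 1.85 CPM in 4HC and did not pass the test (log2 fold change -0.08, adjusted p = 0.0788), nor did SP2 (adjusted p = 0.873) and SP3 (adjusted p = 0.209). SP5, SP6, SP7, SP8 and SP9 were not tested. The 2 genes called, of 3 other KLF and 4 SP genes tested, stand beside 36.4% over all genes.

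The genes whose pattern over the 6 samples was most like that of KLF6 were found by the root mean square difference in log2 CPM, centred on each gene's control mean, among 10236 tested genes of at least 5 CPM in control. Among the nearest were DRC3 (0.0421), DCAF4 (0.0766), DLG3 (0.0809) and CDC20 (0.0866). CDC20 encodes an activator of the anaphase-promoting complex and went from 104 ± 1.12 to 65.7 ± 3.62 CPM. DCAF4, a substrate receptor of a ubiquitin ligase, went from 20.7 to 13.2 CPM, DLG3, a scaffold protein of cell junctions, from 301 to 191 CPM, and DRC3, a protein of motile cilia, from 5.08 to 3.15 CPM. KLF7 came sixth (0.0886). The other members compared stood far down this order, KLF9 at 1071, KLF3 at 1349, KLF13 at 5061, KLF11 at 5108 and KLF10 at 9431. KLF2, KLF4 and KLF5 were below 5 CPM in control and had no place in it. All of these genes share the same 6 libraries, so the order is a description.

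At the level of transcripts, the deposited table divided the reads of the 10 members among 32 RefSeq transcripts, of which 24 had a mean of at least 10 expected counts in either group. The division is an estimate where transcripts share exons, and the spread between replicates was far wider than for genes (common biological coefficient of variation 0.724 against 0.0277). Of all 42216 transcripts tested, 1.29% were called, and the groups did not overlap for 20%. Of 18 transcripts tested for members other than KLF6, 0 were called by edgeR. With edgeR, 4 had an unadjusted p under 0.05 (the leading transcripts of KLF3, KLF7, KLF9 and KLF10), and DESeq2 called 1 of them, XM_017005161 of KLF7. The shares of all transcripts under the unadjusted rule and under DESeq2 are not given here, so these counts are not a result about the members. The 18 include KLF13 entries that held the same values in every sample.

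The KLF6 reads lay almost wholly on the full-length transcript NM_001300, which has 4 exons. It held 700.0, 682 and 663 expected counts in control samples and 412, 384 and 421 in 4HC-treated samples. The groups were as far apart as for the gene, with a fitted log2 fold change of -0.75. It made up 95.4% of the gene's counts in control and 94.5% in 4HC. NM_001160125, a shorter form with 3 exons, held 13.8, 16.5 and 52.9 counts in control samples and 21.5, 24.6 and 24.9 after 4HC. Its groups overlapped, and 1 control sample held most of its control counts. NM_001160124 stayed below a mean of 10 counts.

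KLF7 had 13 transcripts in the table, 8 of them at a mean of 10 counts or more. XM_017005161 held most of the reads, 291 ± 44.9 expected counts in control and 181 ± 16.3 in 4HC, or 71.7% and 69.6% of the gene. Its groups did not overlap (log2 fold change -0.70, adjusted p = 0.128). XM_017005164 came next, with a mean of 40.9 expected counts in control and 20.3 in 4HC. The reads of KLF10 lay on NM_005655, which went from 343 ± 28.0 to 441 ± 31.2 expected counts (log2 fold change 0.36, adjusted p = 0.179) without overlap, while NM_001032282 held a mean of 23.9 and 16.8 counts. KLF3 had NM_016531, a transcript of 6 exons, as its main form (581 ± 8.06 to 493 ± 21.8 counts, log2 fold change -0.24, adjusted p = 0.117), and its groups did not overlap. XM_017008279 of KLF3 overlapped between groups at 320 ± 24.3 and 310 ± 15.6 counts (log2 fold change -0.05), but the difference between these 2 transcripts was not tested.

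**Figure D3:**
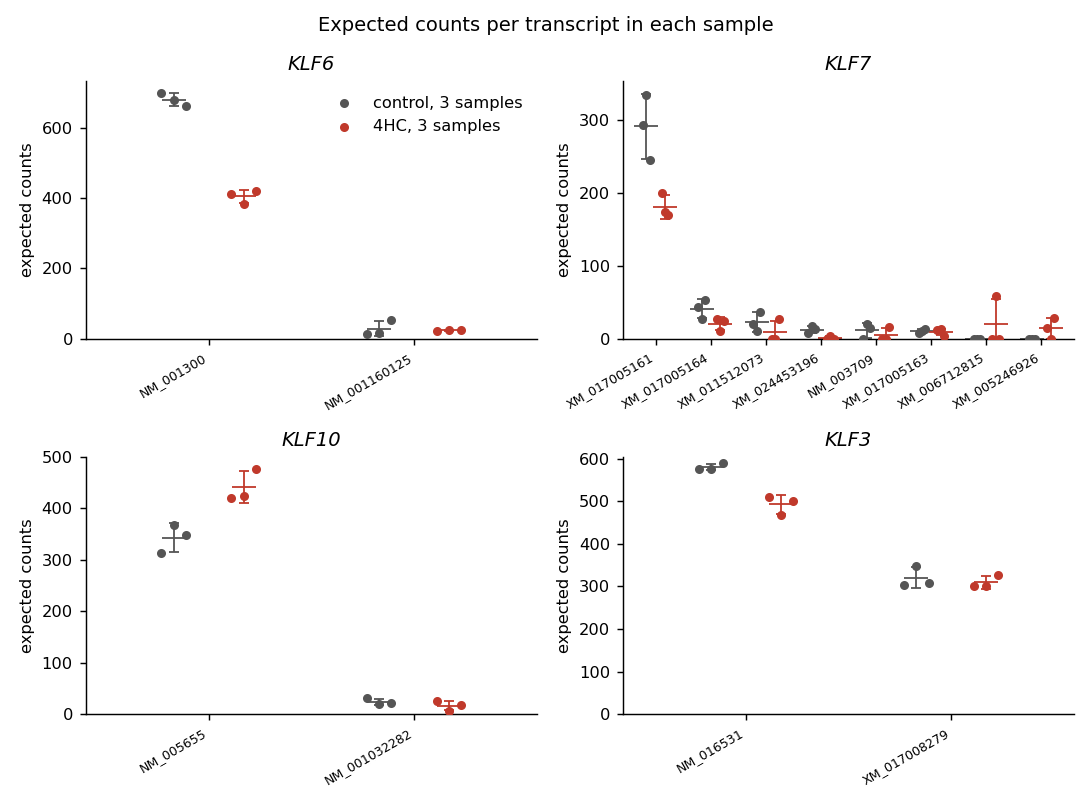
Expected counts of the transcripts of KLF6, KLF7, KLF10 and KLF3 with a mean of at least 10 counts in either group, in control samples (grey) and 4HC samples (red). Points are samples, horizontal lines are means and bars are SD (n = 3). In each gene 1 transcript carries most of the reads, and for these leading transcripts the groups do not overlap.

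The other members added little at this level. KLF2 and KLF9 had a single transcript each, of which NM_001206 of KLF9 held 1081 ± 41.0 expected counts in control and 946 ± 68.2 in 4HC without overlap (adjusted p = 0.312), and KLF4 and KLF5 had 1 main transcript of few reads. The NM_001286818 form of KLF5 had a mean of 1.46 expected counts in control and 10.3 in 4HC, where 1 treated sample held 22.6. For KLF11, the counting moved reads between NM_003597 and NM_001177716 from sample to sample, the latter holding 0, 45.8 and 218 counts in the control samples, so only the gene total was used. KLF13 was listed under 3 entries of 1 accession, and 2 of them held the same values in every sample, so its gene total was used as well.

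The partners, regulators and reported targets of KLFs were taken from lists compiled by hand. Of 12 cofactor genes tested, 1 was called higher and 2 lower (9 not called), with a median log2 fold change of -0.04 against 0.00 over all genes. KAT2B, an acetyltransferase, was 30.8, 27.8 and 28.96 CPM in control samples and 38.1, 42.2 and 37.5 CPM in treated samples, and was upregulated (log2 fold change 0.43, adjusted p = 9.58e-08). The deacetylase HDAC2 was downregulated (log2 fold change -0.23, 232 ± 8.69 to 198 ± 7.08 CPM, adjusted p = 9.24e-07), as was the acetyltransferase EP300 (log2 fold change -0.20, 127 ± 3.32 to 110 ± 5.35 CPM, adjusted p = 9.98e-05). The cofactor genes not called were CTBP1, CTBP2, SIN3A, SIN3B, HDAC1, HDAC3, SAP30, RBBP4 and CREBBP. Their log2 fold changes went from -0.15 for SAP30 to 0.09 for HDAC1.

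Of 16 genes that control KLF genes or proteins, 2 were called higher and 4 lower (10 not called), with a median of -0.01. FBXW7, a ubiquitin ligase subunit that marks KLF2 and KLF5 for degradation, was 25.4, 25.8 and 23.6 CPM in control samples and 37.9, 39.8 and 41.2 CPM in treated samples. It was upregulated (log2 fold change 0.67, adjusted p = 3.65e-13). TGFBR1, the type I receptor of TGF-β and both an inducer of KLF10 and a reported KLF6 target, went from 58.5 ± 0.659 to 75.5 ± 3.45 CPM (log2 fold change 0.37, adjusted p = 8.75e-09). TGFBR2, in the same list, was not called, at 6.97 ± 0.299 and 6.53 ± 0.231 CPM (log2 fold change -0.09, adjusted p = 0.586). The ubiquitin ligases SMURF1 (log2 fold change -0.22, adjusted p = 0.000355) and SIAH1 (log2 fold change -0.20, adjusted p = 0.00166) were downregulated. So were, by less, the transcription factor MEF2D (log2 fold change -0.17, adjusted p = 0.00992) and the glucocorticoid receptor NR3C1 (log2 fold change -0.16, adjusted p = 0.0222). Both calls were lost in the 3 limma fits and without control replicate 1 (adjusted p = 0.0543 for MEF2D and 0.200 for NR3C1, edgeR). MEF2D was also lost without 4HC replicate 2 (adjusted p = 0.0591), and NR3C1 without 4HC replicate 3 (adjusted p = 0.0725) and with DESeq2 (adjusted p = 0.0799). The SMAD genes that carry the TGF-β signal (SMAD2, SMAD3 and SMAD4) had log2 fold changes from -0.02 to 0.01 and were not called. The ERK5 pathway genes MAP2K5 and MAPK7 upstream of KLF2 and KLF4 were not called either (log2 fold changes 0.09 and 0.04).

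Of 24 reported KLF targets, 15 were tested, 4 were called higher and 4 lower (7 not called), with a median of 0.08, and 8 were below 1 CPM in every sample. CDKN1A, the p21 inhibitor of cyclin-dependent kinases and a reported target of KLF6 and KLF4 as well as of p53, was 220, 233 and 221 CPM in control samples and 800, 786 and 764 CPM in 4HC-treated samples. It was upregulated (log2 fold change 1.80, adjusted p = 2.56e-42). CCNB1, which encodes cyclin B1, fell from 176 ± 7.57 to 119 ± 5.58 CPM (log2 fold change -0.57, adjusted p = 4.00e-17). TGFBR1 is in this list too. The called targets that follow were named after their values were seen. TGFB1, which encodes the TGF-β1 ligand, went from 34.8 ± 1.42 to 40.0 ± 3.28 CPM (log2 fold change 0.20, adjusted p = 0.00607), and the cyclin-dependent kinase gene CDK1 from 587 ± 24.6 to 701 ± 23.8 CPM (log2 fold change 0.26, adjusted p = 6.37e-09). S1PR1, a sphingosine 1-phosphate receptor, was downregulated (log2 fold change -0.14, adjusted p = 0.00320), as was NOS3, the endothelial nitric oxide synthase, at 1.09 to 2.96 CPM with overlapping groups (log2 fold change -0.61, adjusted p = 0.0292). CDK1 and S1PR1 kept their calls under all 15 alternatives. TGFB1 and NOS3 lost theirs in the 3 limma fits, with DESeq2 (adjusted p = 0.0505 and 0.144) and without 4HC replicate 1 (adjusted p = 0.125 and 0.239). NOS3 also lost its call without control replicate 2 (adjusted p = 0.0882) and without control replicate 3 (adjusted p = 0.142). The called shares of these lists lie beside 36.4% over all genes, and a part of the KLFs in any of these changes was not tested.

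**Figure D4:**
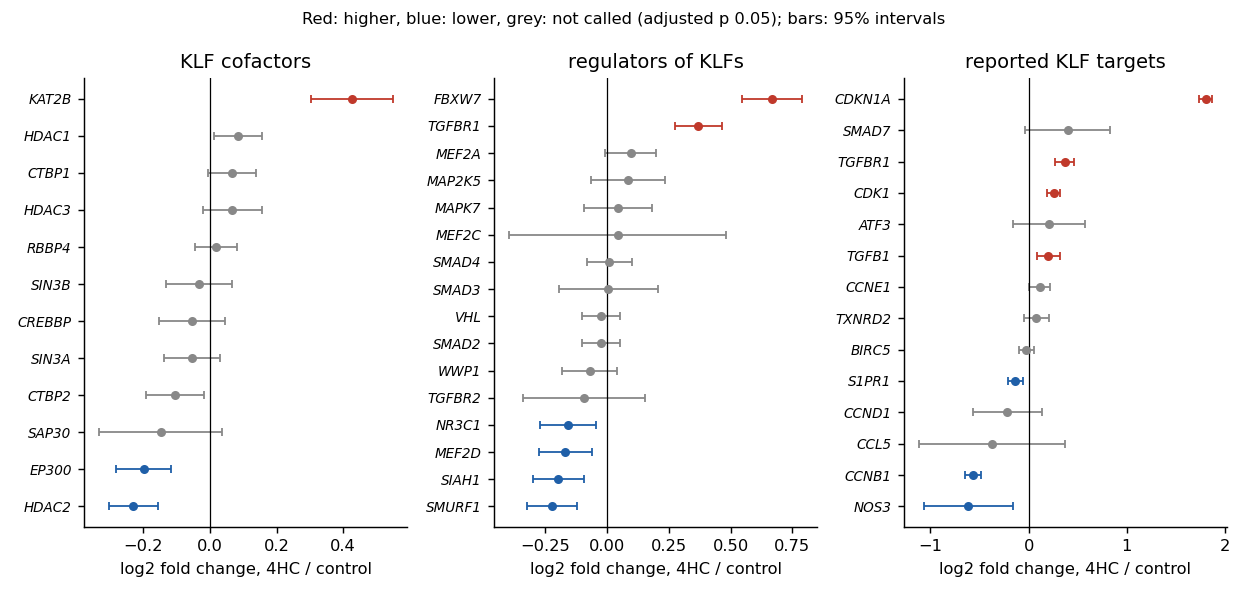
Log2 fold change with 95% intervals (x axis) for tested genes of the 3 lists: KLF cofactors, regulators of KLFs and reported KLF targets. Red genes were called higher, blue genes lower and grey genes were not called at an adjusted p of 0.05. CDKN1A at 1.80 and FBXW7 at 0.67 have the highest values of the targets and the regulators.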

How the data were processed

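Bulk RNA-seq of 3 control and 3 4HC-treated COV434 samples was analysed. Per the labels, reads were filtered with SOAPnuke, and the submitters' processing notes name HISAT2, Bowtie2, RSEM 1.3.1, DESeq2 1.4.5 and GRCh38.p13. The authors deposited expected counts per gene (16798) and transcript (79213), with TPM and FPKM, which were scaled to length and depth by the authors. The authors' fold changes and p-values were not used, nor was a second gene table with the same values.

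Expected counts were rounded (85.5% of gene values were whole) and tested with edgeR 4.0.16 (TMM, filterByExpr, quasi-likelihood, condition only) in R 4.3.3, with Benjamini-Hochberg adjustment over 12368 genes or 42216 transcripts. The fit over genes was tested on simulated counts, and the fit over transcripts was not. Alternatives were DESeq2 1.42.0 and its size factors, library size alone, other low-count filters (none, or at least 10 counts in every sample), limma 3.58.1 on log2(TPM + 1), log2(TPM + 0.1) and log2(FPKM + 1), a replicate block and leaving out each sample. Replicates of a group differed beyond sampling noise (chi-square per gene 1.70 to 2.46). With 3 against 3 samples an exact permutation test of 1 gene cannot go below 0.1 and was not used. Gene ranges came from GENCODE 29.

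The members and lists were chosen with earlier results of these data known. Named genes were all 10 members, the other KLF and SP genes called, up to 4 called genes per list with the largest change at 5 CPM or more, the 5 genes most like KLF6, and transcripts with a mean of 10 counts. Of these, 2 genes are not reported here. Others were chosen after their values were seen.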

Additional observations from a re-analysis of the deposited data

How the results depend on the processing

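Of 315 tested fold changes (21 genes under 15 alternatives), 299 kept their direction and their side of the threshold. The 21 genes leave out MEF2D, NR3C1, TGFB1, CDK1, S1PR1 and NOS3, which were named later. Of the 15 alternatives, the call was lost in 5 for MEF2D, 6 for NR3C1, 5 for TGFB1 and 7 for NOS3. It was lost in 0 for CDK1 and S1PR1. Limma on log2(FPKM + 1) called 1343 genes lower (2118 with edgeR on counts) and 2 members other than KLF6, 1 of them lower, because KLF3 and KLF9 missed the threshold. The cause was not tested. With library size alone 5 cofactors were called in place of 3 (CTBP1 and HDAC1 in addition), and the median of all genes moved to 0.03. DESeq2 called 1 KLF transcript in place of 0, and 3234 genes in place of 4497 (1629 higher and 1605 lower). The share of all transcripts that DESeq2 called is not given here. The log2 fold change of KLF6 was -0.69 with limma on log2(TPM + 1) and -0.64 on log2(FPKM + 1).

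The values that changed sign belonged to members that were not called. KLF11 was at 0.0201 with library size alone and 0.0069 with limma on log2(FPKM + 1), and KLF13 at 0.0207 and 0.0185. Leaving out each sample in turn gave -0.0027 to 0.21 for KLF2 (below 0 without control replicate 1), -0.0752 to 0.17 for KLF4 (below 0 without 4HC replicate 2), -0.0343 to 0.22 for KLF5 (below 0 without control replicate 1), -0.0943 to 0.0486 for KLF11 and -0.0311 to 0.0172 for KLF13. It gave 4 called members each time, and 3622 to 4246 genes called. KLF3 came nearest to the threshold (highest adjusted p = 0.0487, edgeR).

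Deviations from the group mean were correlated between control and 4HC samples, with r from -0.07 to 0.13 for the same number. For different numbers r went from -0.19 (control 2 with 4HC 3) to 0.20 (control 2 with 4HC 1). With 3 samples per group these values cannot decide whether the samples were paired. With the replicate block, 4213 genes were called in place of 4497, and 4 members other than KLF6. Depth limited KLF2, KLF4 and KLF5, at 1.63 to 4.65 CPM.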
